A study of Mus musculus with 12 samples.

Results

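Cd300lg, Ttc9, Dmp1, Unc13c and Hapln1 were 5 genes with large rises in brain endothelium of Gpr124 mutant mouse embryos, and none of them is a standard marker of brain vessels. They were chosen by their log2 fold changes in the libraries described here, so the values given for them are a description and carry no test. All 5 were found among the 49315 genes counted, and all 5 were among the 16637 genes that passed the filter on low counts. GPR124 is an adhesion receptor of endothelial cells that, with RECK, passes WNT7 to Frizzled receptors and turns on β-catenin signaling, which drives vessel ingrowth into the forebrain and the forming of the blood-brain barrier. The genes described here belong to other fields. Cd300lg encodes nepmucin, a sialomucin receptor with an immunoglobulin domain that is known from capillaries and high endothelial venules of peripheral organs. Ttc9 encodes a small cytoplasmic protein with tetratricopeptide repeats, and Unc13c encodes Munc13-3, which primes synaptic vesicles for fusion in cerebellar neurons. Dmp1 encodes an acidic phosphoprotein secreted into bone and dentin, and Hapln1 encodes link protein, which locks proteoglycans onto hyaluronan in cartilage and around neurons.

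RNA-seq was performed on forebrain endothelial cells, purified by sorting from embryos at E15.5, with 1 embryo per library and 4 embryos for each of 3 genotypes. Wild-type embryos were JE1, JE6, KE8 and LE6. Gpr124ΔC/ΔC embryos, JE3, JE4, LE2 and LE5, were homozygous for a knock-in allele made by CRISPR in which a V5 tag and a stop codon follow the last transmembrane segment, so that the receptor lacks its intracellular domain and, by the study's own account, is less abundant on the cell surface. Gpr124-/- embryos, KE4, ME1, ME4 and ME5, were homozygous for a lacZ allele and came from crosses of heterozygous parents. Both alleles are carried in the germ line, so that the endothelium was not the only mutant tissue. Cells were sorted as positive for CD31 and negative for CD140b, a pericyte marker, for CD45, a leukocyte marker, and for a dye of dead cells. The meaning of the letters J, K, L and M in the embryo labels was not given. The letter J stood for 2 embryos each of wild type and Gpr124ΔC/ΔC, L for 1 of the former and 2 of the latter, K for the wild-type embryo KE8 and the Gpr124-/- embryo KE4, and M for 3 embryos that were all Gpr124-/-.

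Library depth was 13877572 to 22551163 reads on genes, and the Gpr124ΔC/ΔC libraries had at most 16033001. Adgra2, the symbol under which Gpr124 is listed, ranged from 28.4 to 51.1 TPM (a transcript level, from reads corrected for gene length and library size) in wild type and from 4.03 to 6.29 in Gpr124-/-. It ranged from 34.1 to 63.5 TPM in Gpr124ΔC/ΔC, overlapping with wild type. The 10 endothelial markers examined, Pecam1 and Cdh5 among them, summed to between 4600 and 6979 TPM in the 12 libraries, and 6 of them had an adjusted p under 0.05 in Gpr124-/- against wild type in edgeR. Of these, Emcn, Cdh5, Pecam1 and Cd34 were higher, by log2 fold changes of 1.26, 0.74, 0.54 and 0.34, and Tek and Erg lower, by -0.73 and -0.41. Fewer cells of a type and less RNA per cell cannot be told apart in such bulk samples.

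The 5 genes fell into different patterns over the genotypes. Cd300lg was high in Gpr124-/- alone, Ttc9 and Hapln1 stepped up from wild type to Gpr124ΔC/ΔC to Gpr124-/-, Dmp1 reached like levels in both mutants, and Unc13c had its highest mean in Gpr124ΔC/ΔC. From wild type to Gpr124-/-, the 4 embryos of each genotype did not overlap in CPM (reads scaled to library size) for 5 of the 5 genes, and 11.1% of all tested genes were higher in Gpr124-/- without overlap. For Gpr124ΔC/ΔC against wild type this held for 4 of 5 genes and 5.27% of all tested genes, and for Gpr124-/- against Gpr124ΔC/ΔC for 3 of 5 and 7.03%. Thresholds of an adjusted p under 0.05 and a log2 fold change above 1, the study's own, were passed upward by 5, 4 and 2 of the 5 genes in these comparisons, against 5.67%, 0.89% and 2.67% of all tested genes. The 2 between the mutants were Cd300lg and Hapln1, so the upper step of Ttc9 did not pass. Since these contrasts chose the genes, nothing is read from those counts. The comparisons of either mutant with wild type also share the 4 wild-type libraries.

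**Figure D1:**
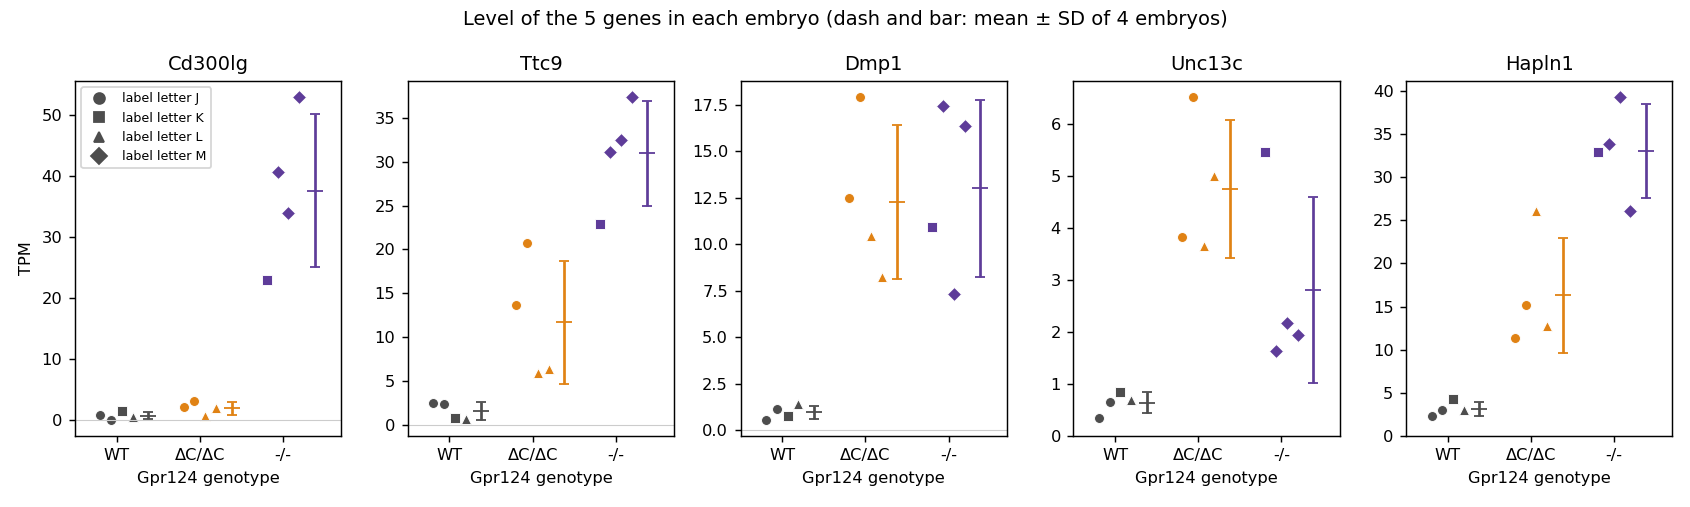
TPM (y axis, a scale of its own for each gene) of Cd300lg, Ttc9, Dmp1, Unc13c and Hapln1 in the 12 embryos by Gpr124 genotype; each point is 1 embryo, its shape gives the letter of the embryo label, and the dash with a bar gives the mean ± SD of 4 embryos. Cd300lg is high in Gpr124-/- alone (22.9 to 52.9 TPM), Dmp1 is at like levels in both mutants, and the square of Unc13c in Gpr124-/- is embryo KE4 at 5.47 TPM.

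The choice rested on rank. Genes past both thresholds were ranked where their mean reached 8 CPM and the compared genotypes did not overlap, and among these Cd300lg had the largest and Ttc9 the 5th largest log2 fold change in Gpr124-/- against wild type. Ttc9, just inside that limit, had 4.23, and Ramp3, just outside it at rank 6, had 4.21. In Gpr124ΔC/ΔC against wild type, Dmp1, Unc13c, Ttc9 and Hapln1 held ranks 1, 2, 3 and 5. Hapln1, just inside, had 2.29, and Tmem255a, just outside, had 2.15. The genes ranked between the members, such as Ccn4, Esm1 and Mmp2, are not described here.

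Cd300lg (ENSMUSG00000017309), the cell-surface receptor of the group, lies on the plus strand of chromosome 11 from 102041509 to 102055620 (GRCm38) and has 8 exons in the gene model. Its level was 0.891, 0.112, 1.54 and 0.611 TPM in wild-type embryos JE1, JE6, KE8 and LE6. In Gpr124ΔC/ΔC embryos JE3, JE4, LE2 and LE5 it was 2.20, 3.20, 0.653 and 1.95 TPM, and in Gpr124-/- embryos KE4, ME1, ME4 and ME5 it was 22.9, 40.6, 34.0 and 52.9 TPM. All Gpr124-/- embryos lay above all others, while wild type and Gpr124ΔC/ΔC overlapped. The means were 0.789 ± 0.596, 2.0 ± 1.05 and 37.6 ± 12.5 TPM (SD, n = 4 each) in the order wild type, Gpr124ΔC/ΔC, Gpr124-/-. On the log2 scale of the count model, Gpr124-/- was 5.54 above wild type (standard error 0.55) and 4.25 above Gpr124ΔC/ΔC (0.51). Gpr124ΔC/ΔC was 1.29 above wild type (0.56), a difference that did not separate the embryos. The wild-type values rested on few reads, from 2 in JE6 to 28 in KE8, against 363 to 884 reads in Gpr124-/-. Ranked by mean TPM among all tested genes, Cd300lg moved from the lowest 8.94% in wild type to the 73.2nd percentile in Gpr124-/-.

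Ttc9 (ENSMUSG00000042734), the cytoplasmic repeat protein, lies on the plus strand of chromosome 12 from 81631369 to 81664941 and has 3 exons. Its promoter is shown because it was the only one of those examined in which a searched motif was found, and because it was rich in CpG. The 250 bases before the RefSeq start site (GRCm38.p6, chr12:81630999-81631248, plus strand) read as follows, with the motif match in capitals.
Ttc9 promoter: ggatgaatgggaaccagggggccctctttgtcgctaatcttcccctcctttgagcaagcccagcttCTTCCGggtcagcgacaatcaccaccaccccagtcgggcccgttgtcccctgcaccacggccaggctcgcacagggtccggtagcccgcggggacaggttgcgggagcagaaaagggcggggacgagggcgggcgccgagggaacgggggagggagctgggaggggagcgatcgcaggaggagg
The capitals are the ETS word CGGAAG read on the opposite strand, 184 bases before the start site. The window of 300 bases, which adds 50 bases after the start, held 25 CpG, against a median of 7 over 32851 RefSeq promoters.

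Ttc9 was at 2.45, 2.40, 0.738 and 0.670 TPM in wild-type embryos JE1, JE6, KE8 and LE6. It was at 13.6, 20.8, 5.91 and 6.36 TPM in Gpr124ΔC/ΔC embryos JE3, JE4, LE2 and LE5, and at 22.9, 31.1, 32.5 and 37.4 TPM in Gpr124-/- embryos KE4, ME1, ME4 and ME5. No embryo of a genotype overlapped with those of the next, and within wild type and within Gpr124ΔC/ΔC the J embryos lay above the K and L embryos. The means were 1.56 ± 0.993, 11.7 ± 7.03 and 31.0 ± 5.99 TPM (SD, n = 4). The log2 fold change was 4.23 (standard error 0.53) for Gpr124-/- and 2.81 (0.52) for Gpr124ΔC/ΔC against wild type, and Gpr124-/- lay 1.42 (0.46) above Gpr124ΔC/ΔC. The 2 steps were estimated at 7.01-fold from wild type to Gpr124ΔC/ΔC and 2.69-fold from there to Gpr124-/-, and their difference was not tested. With the letter as a term, Gpr124ΔC/ΔC lay 2.83 above wild type on the log2 scale. Gpr124-/- then lay 2.06 above Gpr124ΔC/ΔC and 4.89 above wild type.

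Unc13c (ENSMUSG00000062151), the vesicle-priming factor, lies on the minus strand of chromosome 9 from 73479422 to 73968966 and has 33 exons. It was the least abundant of the 5 by mean TPM in wild type and in Gpr124-/-. Wild-type embryos JE1, JE6, KE8 and LE6 had 0.3502, 0.660, 0.839 and 0.691 TPM, and Gpr124ΔC/ΔC embryos JE3, JE4, LE2 and LE5 had 3.83, 6.52, 3.66 and 4.99 TPM. Gpr124-/- embryos KE4, ME1, ME4 and ME5 had 5.47, 1.64, 2.167 and 1.94 TPM. Both mutants lay above wild type in every embryo, and Gpr124-/- overlapped with Gpr124ΔC/ΔC through KE4 alone, since the 3 M embryos lay below all Gpr124ΔC/ΔC embryos. The log2 fold change was 2.82 (standard error 0.39) for Gpr124ΔC/ΔC and 2.08 (0.38) for Gpr124-/- against wild type. Gpr124-/- against Gpr124ΔC/ΔC was -0.74 (0.35), and without KE4 it was -1.25, while Gpr124-/- against wild type was then 1.57.

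Dmp1 (ENSMUSG00000029307), a secreted protein of mineralized matrix, lies on the plus strand of chromosome 5 from 104202613 to 104214102 and has 6 exons. Its promoter is printed as that of the gene at like levels in both mutants. It was taken before the RefSeq start that lies 4 bases from the start of the gene in the count files (GRCm38.p6, chr5:104202367-104202616, plus strand), and it has no capitals since no searched motif was found.
Dmp1 promoter: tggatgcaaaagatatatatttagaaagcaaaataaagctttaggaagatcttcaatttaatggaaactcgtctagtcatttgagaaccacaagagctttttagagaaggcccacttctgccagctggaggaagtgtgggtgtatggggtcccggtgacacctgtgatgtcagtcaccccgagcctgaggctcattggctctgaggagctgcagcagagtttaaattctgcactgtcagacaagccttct
This window held 5 CpG, fewer than the median of 7.

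In wild-type embryos JE1, JE6, KE8 and LE6, Dmp1 was at 0.557, 1.11, 0.763 and 1.38 TPM. It was at 12.5, 17.9, 10.4 and 8.22 TPM in Gpr124ΔC/ΔC embryos JE3, JE4, LE2 and LE5, and at 10.9, 17.4, 7.29 and 16.4 TPM in Gpr124-/- embryos KE4, ME1, ME4 and ME5. Wild type lay apart from both mutants, which overlapped across nearly their whole range. The means were 0.950 ± 0.363 in wild type, 12.3 ± 4.15 in Gpr124ΔC/ΔC and 13.01 ± 4.75 TPM in Gpr124-/- (SD, n = 4). Against wild type, the log2 fold change of Gpr124-/- was 3.75 with a standard error of 0.40 and that of Gpr124ΔC/ΔC 3.62 with 0.40, and the 2 mutants differed by 0.12 with 0.34. Reads per embryo were 12 to 25 in wild type and 119 to 276 in the mutants.

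Hapln1 (ENSMUSG00000021613), the hyaluronan link protein, lies on the plus strand of chromosome 13 from 89540636 to 89611832 and has 5 exons. Its promoter (GRCm38.p6, chr13:89540386-89540635, plus strand) is shown as the one with the fewest CpG of those examined, 3 in the window of 300 bases.
Hapln1 promoter: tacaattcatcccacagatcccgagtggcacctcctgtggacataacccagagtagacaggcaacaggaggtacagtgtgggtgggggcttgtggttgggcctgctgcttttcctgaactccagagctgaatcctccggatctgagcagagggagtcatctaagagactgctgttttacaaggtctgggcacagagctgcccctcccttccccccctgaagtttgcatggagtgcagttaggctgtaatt
No searched motif was found in it, so it has no capitals.

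Hapln1 was the most abundant of the 5 in wild type, at 2.29, 2.99, 4.26 and 2.98 TPM in embryos JE1, JE6, KE8 and LE6. Gpr124ΔC/ΔC embryos JE3, JE4, LE2 and LE5 had 11.4, 15.2, 26.0 and 12.7 TPM, and Gpr124-/- embryos KE4, ME1, ME4 and ME5 had 33.0, 33.8, 39.3 and 26.1 TPM. Wild type lay apart from both mutants, whereas the highest Gpr124ΔC/ΔC embryo, LE2, came next to the lowest Gpr124-/- embryo, ME5. The means were 3.13 ± 0.823, 16.3 ± 6.66 and 33.0 ± 5.44 TPM (SD, n = 4). The log2 fold change was 3.36 (standard error 0.25) for Gpr124-/- and 2.29 (0.24) for Gpr124ΔC/ΔC against wild type, with 1.07 (0.23) between the mutants. The value between the mutants was 0.51 with the letter as a term. It ran from 0.96 without LE5 to 1.34 without LE2 when single libraries were left out. The standard errors of Hapln1 were the smallest of the 5 genes in all 3 comparisons.

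**Figure D2:**
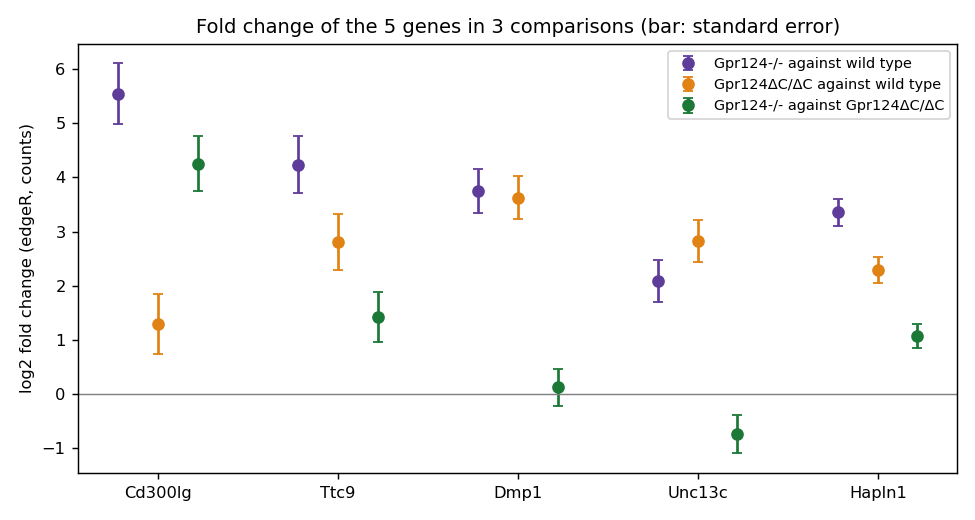
Log2 fold change (y axis, from the count model) of the 5 genes in the 3 comparisons, with 1 standard error as the bar. The difference between the mutants runs from 4.25 for Cd300lg through 1.42 for Ttc9, 1.07 for Hapln1 and 0.12 for Dmp1 to -0.74 for Unc13c.

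Compared per length by mean TPM, the order of the 5 genes changed with genotype. In wild type Hapln1 led, with only Ttc9 reaching into its range, and the 4 other genes overlapped with one another between 0.112 and 2.45 TPM. In Gpr124ΔC/ΔC the order was Hapln1, Dmp1, Ttc9, Unc13c, Cd300lg, where Hapln1, Dmp1 and Ttc9 overlapped, Unc13c overlapped with Ttc9 alone, and Cd300lg lay below all embryos of the others. In Gpr124-/- the order was Cd300lg, Hapln1, Ttc9, Dmp1, Unc13c, where the leading 3 overlapped, at 37.6, 33.0 and 31.0 TPM, and Dmp1 at 13.01 and Unc13c at 2.80 each stood below them in every embryo.

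Within a letter of the embryo labels the direction was the same. Since the genotypes did not overlap, this was fixed in advance for all but Cd300lg in Gpr124ΔC/ΔC, and only the sizes are described. In K, the Gpr124-/- embryo KE4 had 14.4 times the CPM of the wild-type embryo KE8 for Cd300lg, 30.1 times for Ttc9, 13.9 times for Dmp1, 6.31 times for Unc13c and 7.49 times for Hapln1. In J, the mean of 2 Gpr124ΔC/ΔC embryos was 5.33, 6.76, 17.1, 9.56 and 4.78 times that of 2 wild-type embryos, in the same order of genes. In L, that of 2 Gpr124ΔC/ΔC embryos was 1.996, 8.52, 6.30, 5.83 and 6.04 times that of 1 wild-type embryo. The rise of Cd300lg in KE4 was thus smaller than that of the group as a whole, and with the letter as a term in the model its log2 fold change in Gpr124-/- was 3.84 against wild type and 1.98 against Gpr124ΔC/ΔC. For the 3 M embryos, letter and genotype cannot be told apart.

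The genes whose log2 CPM most resembled each gene over the 12 libraries were found by Pearson correlation among all tested genes, as a description without a test; part of each value comes from the genotype differences that all these genes share. Cd300lg was most like Eml1 (r = 0.976), Gpihbp1 (0.967), which anchors lipoprotein lipase to capillaries, and 1810006J02Rik (0.965). Their log2 fold changes were 1.47, 3.57 and 2.87 in Gpr124-/- against wild type, and 0.40, 0.96 and 1.08 in Gpr124ΔC/ΔC. Ttc9 was most like Cks1b (0.985), which encodes a subunit of cyclin-dependent kinases, and then Bik (0.967) and Ripply3 (0.963). Their rises were far smaller than that of Ttc9, at 0.45, 1.43 and 0.91 in Gpr124-/- against wild type. Dmp1 was most like Gm11951 (0.966), the protocadherin gene Pcdh17 (0.960) and the tetraspanin-like Tm4sf1 (0.958), with log2 fold changes of 2.02, 1.86 and 1.49 in Gpr124-/- and of 1.69, 1.62 and 1.21 in Gpr124ΔC/ΔC. Between the mutants Tm4sf1 differed by 0.29 (edgeR adjusted p = 0.0232). Unc13c was most like the growth factor gene Pdgfc (0.942), the receptor gene Lifr (0.927) and Steap4 (0.924), with log2 fold changes of 1.26, 0.51 and 2.99 in Gpr124-/- and of 1.48, 0.76 and 3.24 in Gpr124ΔC/ΔC. Hapln1 was most like Gpr183 (0.987), Tmem255a (0.986) and Fam122b (0.984), which had log2 fold changes of 2.80, 3.49 and 1.95 in Gpr124-/- and of 1.82, 2.15 and 1.5 in Gpr124ΔC/ΔC.

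Whether families and known partners moved with the 5 genes was examined on 96 listed genes, of which 94 were found and 62 passed the filter on low counts. The lists were chosen with earlier results of these data known, so the shares below are no independent test. Here a gene is called at an adjusted p under 0.05 (edgeR's quasi-likelihood test, Benjamini-Hochberg over the 16637 genes) and an absolute log2 fold change above 1. In Gpr124-/- against wild type 9 of the 62 rose and 5 fell, or 22.6%, where 9.88% of all tested genes were called. In Gpr124ΔC/ΔC against wild type 1 fell and none rose, or 1.61%, against 1.92% of all tested genes. At an unadjusted p under 0.05 in edgeR 7 of the 62 rose in Gpr124ΔC/ΔC, and DESeq2 called 0 as risen. Between the mutants 4 were higher and 2 lower in Gpr124-/-, or 9.68%, against 4.6% of all. Without the fold threshold 19, 3 and 11 of the 62 had an adjusted p under 0.05 in edgeR. Of all 16637 tested genes, 3295, 680 and 1468 did, which is 19.8%, 4.09% and 8.82% of them. The median log2 fold change of the 62 was 0.13 in Gpr124-/- and -0.01 in Gpr124ΔC/ΔC against wild type, beside -0.01 and 0.01 over all tested genes. These counts moved with single libraries: that of Gpr124-/- against wild type was 9 without ME1, and that between the mutants was 12 without KE4, 3 without LE2, 2 without ME1 and 1 without ME5. With the letter as a term, the calls of Emcn, Fam20c, Rab3a and Adamts9 were kept among the genes called in Gpr124-/- against wild type, as was that of Fam20c in Gpr124ΔC/ΔC, and the 6 calls between the mutants were lost.

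**Figure D3:**
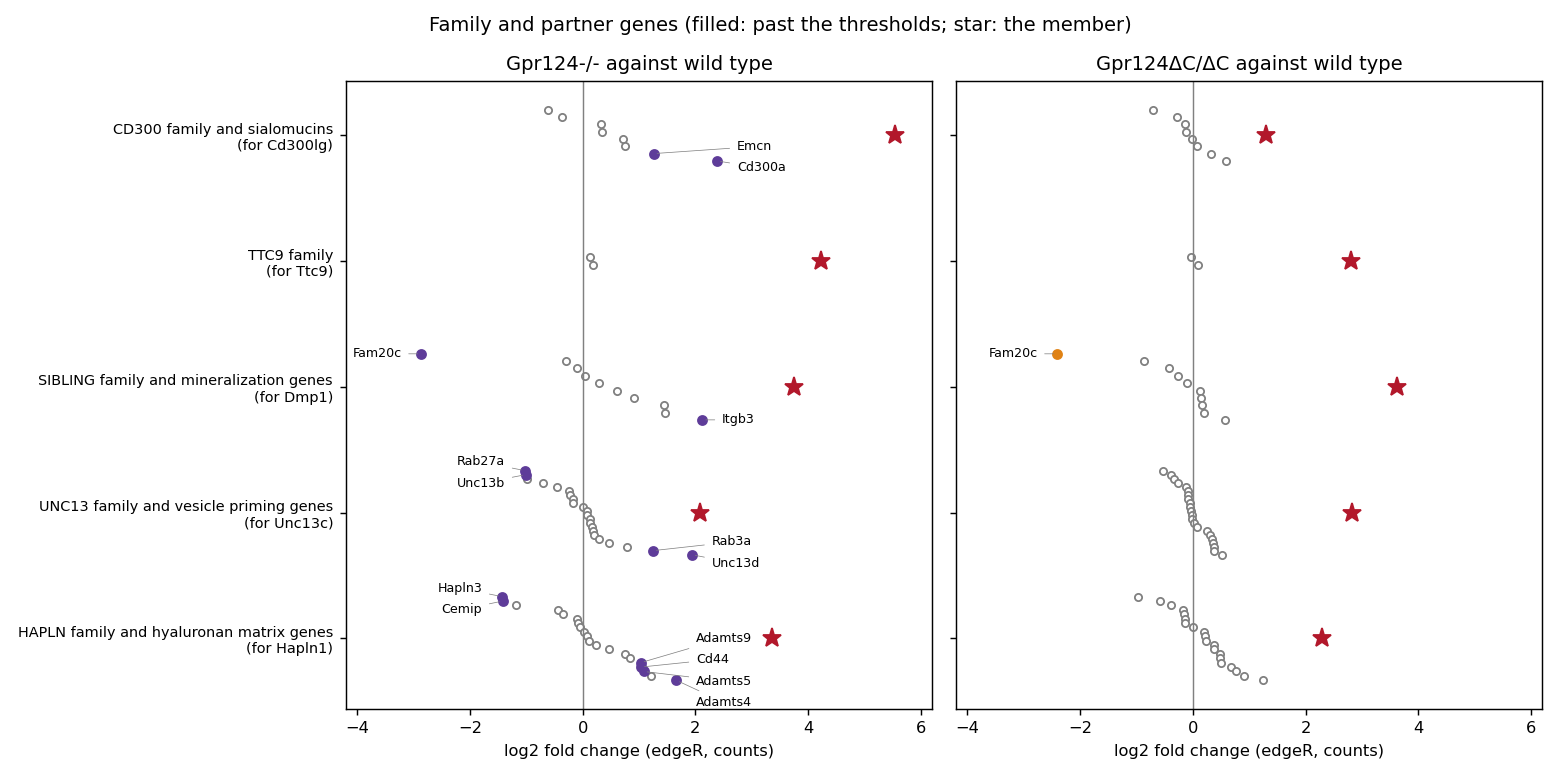
Log2 fold change (x axis) of the 62 tested family and partner genes, by list (y axis), for Gpr124-/- (left) and Gpr124ΔC/ΔC (right) against wild type; filled circles are called genes, open circles the others, and the star is the member the list belongs to. Fam20c is the only called gene in the right panel, and no listed gene rises as far as its member in either panel.

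Of the CD300 family and the sialomucins listed for Cd300lg, 24 of 25 genes were found and 8 tested, and 7 of the 24, Cd300e among them, had no read in any library. Cd300a, an inhibitory receptor of leukocytes, was the only tested member of the family. It was at 0.163 to 0.3497 TPM in wild type, 0.180 to 0.472 in Gpr124ΔC/ΔC and 1.02 to 2.02 in Gpr124-/-, where it rose (log2 fold change 2.38, standard error 0.37, edgeR adjusted p = 0.000481). It was also higher in Gpr124-/- than in Gpr124ΔC/ΔC (2.32, edgeR adjusted p = 0.00243), though no Cd300a call held with the letter as a term, with values of 1.59 and 1.47, and it rested on 30 to 51 reads in Gpr124-/- and 4 to 11 elsewhere. Emcn, the endothelial sialomucin endomucin, rose from 180.5 TPM in wild type to 444 in Gpr124-/- (log2 fold change 1.26, standard error 0.08, edgeR adjusted p = 4.64e-07). Its mean of 287 TPM in Gpr124ΔC/ΔC lay between, and no 2 genotypes overlapped. Madcam1, which encodes an addressin for leukocytes, was higher in Gpr124-/- than in Gpr124ΔC/ΔC (1.03, edgeR adjusted p = 0.00581). That call was lost without LE2, LE5, ME1 or ME5, with values of 0.91 to 1.19 when single libraries were left out. Other CD300 genes, found at no more than 0.102 TPM in any genotype mean, were not tested, and reads from such near-identical copies are uncertain.

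The relatives of Ttc9 did not pass the test in any comparison, at an unadjusted p under 0.05 in edgeR (0 of 2) or in DESeq2 (0 of 2). Ttc9c, at 30.7 TPM in wild type, was more abundant than Ttc9, and its log2 fold changes were 0.13 and 0.09 in Gpr124-/- and Gpr124ΔC/ΔC against wild type. Ttc9b, at 1.27 TPM, had 0.19 and -0.04.

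Around Dmp1, the gene that passed the test most clearly was Fam20c, which encodes the Golgi kinase that phosphorylates secreted proteins, those of the SIBLING family of bone matrix proteins included. It was at 12.4, 12.5, 9.99 and 10.8 TPM in wild-type embryos JE1, JE6, KE8 and LE6. In Gpr124ΔC/ΔC embryos JE3, JE4, LE2 and LE5 it was at 2.05, 2.59, 2.20 and 2.29 TPM, and in Gpr124-/- embryos KE4, ME1, ME4 and ME5 at 0.814, 1.05, 2.39 and 2.19 TPM. It fell in both mutants without overlap with wild type. The change on the log2 scale was -2.86 (standard error 0.30, edgeR adjusted p = 1.86e-05) in Gpr124-/- and -2.41 (0.29, edgeR adjusted p = 0.00043) in Gpr124ΔC/ΔC, and both calls held under all 20 alternatives tried. Itgb3, an integrin subunit that can pair with Itgav, rose in Gpr124-/- (2.12, standard error 0.43, edgeR adjusted p = 0.00356), but KE4, at 34.6 TPM, lay within the wild-type range of 17.2 to 42.4. The 3 other Gpr124-/- embryos had 117 to 171 TPM, and with the letter as a term the value was 0.54 and the call was lost. Itgb3 was also called against Gpr124ΔC/ΔC (1.55, edgeR adjusted p = 0.0396). That call was lost without any single 1 of JE1, JE3, JE4, LE2, LE5, ME1, ME4 and ME5 (values of 1.29 to 1.86). Itgav was not called in Gpr124-/- against wild type (0.61, edgeR adjusted p = 0.129). Of the other SIBLING genes, Ibsp, Mepe and Dspp were at no more than 0.103 TPM in any genotype mean, Dspp at 0 reads in all libraries. Spp1, osteopontin, was at 0.278 to 6.85 TPM in wild type and did not pass the test (log2 fold change 0.04 in Gpr124-/- and -0.87 in Gpr124ΔC/ΔC).

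Among 22 tested genes of the UNC13 family and vesicle priming, the relatives of Unc13c moved in opposite directions in Gpr124-/-. Unc13d, Munc13-4, which primes secretory granules of blood cells, rose (1.94, standard error 0.34, edgeR adjusted p = 0.00139). It was at 3.15 to 4.81 TPM in wild type and 4.33 to 7.35 in Gpr124ΔC/ΔC, while KE4 had 5.69 and the M embryos 14.0 to 22.4 TPM. With the letter as a term its value was 0.81 and the call was lost. Unc13d was also called against Gpr124ΔC/ΔC (1.42, edgeR adjusted p = 0.0207), a call lost without JE4, LE2, ME1 or ME5 (1.13 to 1.69). Unc13b, Munc13-2, fell from 4.59 to 5.33 TPM in wild type to 2.44 to 2.59 in Gpr124-/- with 3.79 to 4.69 in Gpr124ΔC/ΔC. Its log2 fold change of -1.0 (standard error 0.10, edgeR adjusted p = 1.71e-05) lay at the fold threshold, and the call was lost without JE6, LE6, JE4 or ME4 (-1.04 to -0.98). Unc13a did not pass the test (0.13 in Gpr124-/-, -0.53 in Gpr124ΔC/ΔC). Rab3a, a GTPase of secretory vesicles, rose (1.25, standard error 0.24, edgeR adjusted p = 0.00273), from 5.35 to 12.2 TPM in wild type to 21.3 to 24.0 in Gpr124-/-. Rab27a, a GTPase of secretory granules, fell (-1.02, edgeR adjusted p = 0.0415), a call lost without JE1, JE6, KE8, LE5, ME1, ME4 or ME5 (-1.32 to -0.84). The neuronal partners Snap25 and Syt1 were at no more than 1.52 TPM in any genotype mean and did not pass the test. In Gpr124ΔC/ΔC, where Unc13c had its highest mean, 0 of the 22 were called by edgeR or by DESeq2, and 4 had an unadjusted p under 0.05 in edgeR.

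Of 20 tested genes of the HAPLN family and the hyaluronan matrix, 4 rose and 2 fell in Gpr124-/-. Hapln3, another link protein, fell (-1.43, standard error 0.28, edgeR adjusted p = 0.00277), opposite to Hapln1. It was at 23.5 to 36.5 TPM in wild type and 22.4 to 41.7 in Gpr124ΔC/ΔC, with 20.04 in KE4 and 8.49 to 9.32 in the M embryos. With the letter as a term its value was -0.43 against wild type and -0.23 against Gpr124ΔC/ΔC, and both calls were lost. Hapln3 was lower in Gpr124-/- than in Gpr124ΔC/ΔC as well (-1.28, edgeR adjusted p = 0.0136), a call lost without ME5 (-1.64 to -1.08). In wild type Hapln3 was thus the more abundant link protein, at 30.0 against 3.13 TPM for Hapln1, and in Gpr124-/- the order was turned, at 11.7 against 33.0. Adamts4 and Adamts5, proteases that cut aggregating proteoglycans, rose by 1.66 (standard error 0.38, edgeR adjusted p = 0.00738) and 1.08 (0.31, edgeR adjusted p = 0.0271). The call of Adamts5 was lost without JE1, LE6 or ME1 (0.85 to 1.20). Cd44, a hyaluronan receptor, and Adamts9 rose by 1.04 and 1.03 (edgeR adjusted p = 0.0421 and 0.000606). The call of Cd44 was lost without JE6, KE8, LE6, ME1, ME4 or ME5 (0.87 to 1.36) and that of Adamts9 without KE8, KE4 or ME1 (0.92 to 1.17). Cemip, which takes part in hyaluronan breakdown, fell (-1.41, edgeR adjusted p = 0.0188) at no more than 0.347 TPM in any library, a call lost without KE8, ME1 or ME5 (-1.75 to -1.19). Stab2, a scavenger receptor for hyaluronan, was lower in Gpr124-/- than in Gpr124ΔC/ΔC (-1.85, edgeR adjusted p = 0.042) with overlap of the genotypes, and that call was lost without JE6, LE6, LE2, LE5 or any single Gpr124-/- embryo (-2.17 to -1.32). Of the 4 aggregating proteoglycans that link proteins bind, Ncan, neurocan, had means of 2.50, 3.39 and 2.73 TPM in wild type, Gpr124ΔC/ΔC and Gpr124-/-, Vcan, versican, 0.922, 0.738 and 0.962, and Bcan, brevican, 0.441, 1.03 and 1.06, and none of these 3 passed the test. Acan, aggrecan, had a mean of at most 0.034 TPM and was not tested. Hapln2 and Hapln4 were at no more than 0.0675 TPM in any genotype mean.

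Genes near each of the 5 were compared, namely the 3 nearest tested genes on either side by the lowest coordinate of each gene, whatever its strand, 30 in all. In Gpr124-/- against wild type 4 of them rose and 1 fell, in Gpr124ΔC/ΔC against wild type 2 rose, and 3 were higher in Gpr124-/- than in Gpr124ΔC/ΔC. Of all tested genes, 9.88%, 1.92% and 4.6% were called in these comparisons. The count in Gpr124-/- against wild type was 3 without ME1 or ME5, and that in Gpr124ΔC/ΔC was 0 without JE1 or JE6 and 1 without KE8, LE6, any single Gpr124ΔC/ΔC embryo, ME1 or ME4. Around Cd300lg, Mpp3, a membrane scaffold gene and the nearest tested gene before it, was at 0.498 to 1.38 TPM in wild type, 1.37 to 2.06 in Gpr124ΔC/ΔC and 4.92 to 8.15 in Gpr124-/-. It rose against wild type (log2 fold change 2.79, standard error 0.28, edgeR adjusted p = 1.3e-05) and was higher than in Gpr124ΔC/ΔC (2.11, edgeR adjusted p = 0.000597), and both calls held under all 20 alternatives. Dusp3, a phosphatase gene, rose by 1.03 (0.12, edgeR adjusted p = 7.4e-05), a call lost without LE6, ME1 or ME5 (0.96 to 1.11). Cfap97d1 and Mpp2, the nearest gene after Cd300lg, were called between the mutants alone, at 1.25 and 1.22 (edgeR adjusted p = 0.0113 and 0.0149). The call of Mpp2 was lost without ME4 (1.0 to 1.36 without single libraries). With the letter as a term, the calls of Mpp3 were kept and those of Dusp3, Cfap97d1 and Mpp2 were not. Among 71 tested genes within 1 Mb of Cd300lg by lowest coordinate, 7 were called in Gpr124-/- against wild type.

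After Ttc9, Map3k9 rose in both mutants, by 2.08 in Gpr124-/- (edgeR adjusted p = 0.0129) and 2.11 in Gpr124ΔC/ΔC (edgeR adjusted p = 0.0419), but at 2 to 23 reads per library. The call in Gpr124ΔC/ΔC was lost without any single 1 of 9 libraries, namely all of those of wild type, JE3, JE4, LE5, ME1 and ME4 (1.77 to 2.50). Med6, the nearest gene before Ttc9, did not pass the test (-0.12 and -0.03). Edil3, the nearest tested gene before Hapln1, encodes a secreted integrin ligand of vessels. It rose in both mutants, from 0.592 to 0.923 TPM in wild type to 1.21 to 2.55 in Gpr124ΔC/ΔC and 1.59 to 2.696 in Gpr124-/-. The log2 fold change was 1.28 (standard error 0.22, edgeR adjusted p = 0.001) in Gpr124-/- and 1.04 (0.22, edgeR adjusted p = 0.0154) in Gpr124ΔC/ΔC, and the second call was lost without JE1, JE6 or LE2 (0.84 to 1.13). For Map3k9 and Edil3 alike, adding the letter as a term kept the call in Gpr124ΔC/ΔC and lost that in Gpr124-/-. Near Dmp1, neither the SIBLING gene Spp1, the nearest tested gene after it, nor Gm26703 before it was called, although Gm26703 came close in Gpr124-/- (0.98, edgeR adjusted p = 0.000512). Rab27a, described above, was the only called neighbour of Unc13c, and the nearest, Rsl24d1 and Fam214a, had -0.16 and 0.20 in Gpr124-/-.

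**Figure D4:**
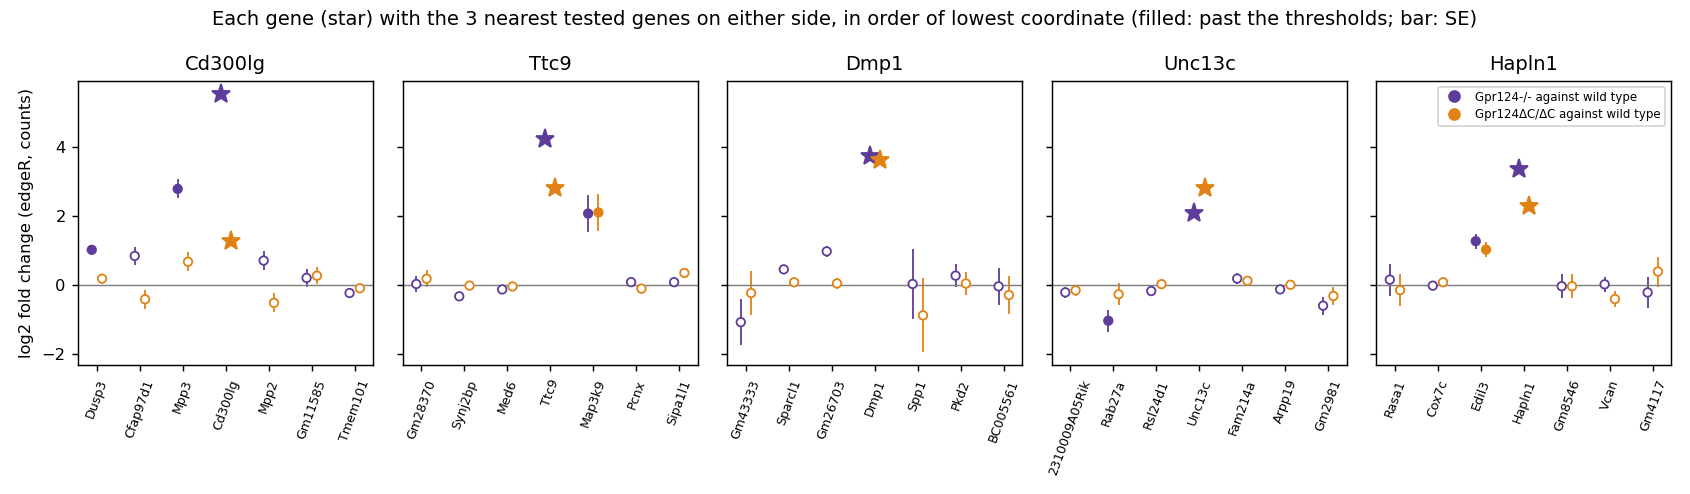
Log2 fold change (y axis) of the 3 nearest tested genes on either side of each of the 5 genes, in order of lowest coordinate (x axis, not to scale), for both mutants against wild type; filled circles are called genes, bars are standard errors, and stars are the members. Mpp3 beside Cd300lg is the neighbour with the largest rise, 2.79 in Gpr124-/-, and the member exceeds all 6 of its neighbours in each panel.

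Promoters of the members were searched for 5 kinds of motif as a description. RefSeq entries matched 4 of the 5 genes: Ttc9, Dmp1 with 2 starts, Unc13c and Hapln1. The words were CTTTGAA or else CTTTGAT or else CTTTGTA or else CTTTGTT for TCF/LEF factors, TGTTTAC or else TGTTTGC for FOX factors, CGGAAG for ETS factors, AACAAT for SOX factors and TATAAA for a TATA box, on both strands of the window of 300 bases. Of 32851 promoters, 16.9% held a TCF/LEF word, 8.48% a FOX word, 16.9% the ETS word, 10.7% the SOX word and 13.6% the TATA word. The ETS word in the Ttc9 promoter printed above was the only match in the members, and the absence of a word says only that these letters are not in this window. G and C made up 68.7% of the Ttc9 window, 47.3% of that of Dmp1 printed above, 59.3% for Unc13c and 54.3% for Hapln1, against a median of 52.7%.

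Markers of the cells that the sort could hold were measured beside these results. Of 10 genes known from capillaries of peripheral organs, 9 were tested, and 7 rose and 1, Car4 (log2 fold change -3.05, edgeR adjusted p = 8.71e-06), fell in Gpr124-/- against wild type, with a median log2 fold change of 3.33. In Gpr124ΔC/ΔC against wild type Rbp7 rose (1.44, edgeR adjusted p = 0.023) and Car4 fell (-1.88, edgeR adjusted p = 0.00137), and between the mutants 5 were higher and 1 lower in Gpr124-/-. Their sum was 130 to 585 TPM in wild type, 407 to 1521 in Gpr124ΔC/ΔC and 1988 to 4672 in Gpr124-/-. Plvap, which encodes a protein of capillary fenestrae, made up most of it, with means of 286, 849 and 3019 TPM. As for Ttc9, the J embryos lay above those of K and L: 508.5 and 584.6 against 130 and 205 TPM in wild type, and 1511 and 1521 against 407 and 410 in Gpr124ΔC/ΔC, so that the L embryos of Gpr124ΔC/ΔC lay below the J embryos of wild type. Of those named by the rule for markers, Fabp4, Aqp1, Meox2 and Gpihbp1 had log2 fold changes of 6.47, 3.79, 3.64 and 3.57 (edgeR adjusted p = 1.47e-05, 0.000197, 4.62e-07 and 2.75e-07). Of 7 erythroid genes 5 rose in Gpr124-/- against wild type, namely Hba-a1, Hba-a2, Hbb-bs, Hbb-bt and Alas2, and their sum was 6654 to 11200 TPM in wild type, 5340 to 9647 in Gpr124ΔC/ΔC and 17620 to 52530 in Gpr124-/-. Of 5 platelet genes 4 rose, namely Pf4, Ppbp, Itga2b and Gp9, and their sum was 231 to 455, 315 to 438 and 497 to 1435 TPM, with KE4 the lowest of Gpr124-/-. As groups, both lists were thus higher in Gpr124-/- than in wild type, as the 5 genes were. Among Gpr124-/- embryos, KE4 was the lowest for the platelet list, Itgb3 and Unc13d, but the highest for Unc13c, at 5.47 TPM. The part of either list in these results was not tested. In Gpr124ΔC/ΔC against wild type 0 of the 12 genes had an adjusted or an unadjusted p under 0.05 in edgeR, and DESeq2 called 0.

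Markers of bone and cartilage cells, for which Dmp1 and Hapln1 are best known, were also measured, and their part in the results was not tested. Of 9 osteoblast and osteocyte markers 2 were tested, Bglap2 was at 0 in all libraries, and Sp7, Runx2, Phex and Mepe were at no more than 0.0984 TPM in any genotype mean. Their sum was 1.55 to 2.97 TPM in wild type, 2.09 to 3.70 in Gpr124ΔC/ΔC and 3.53 to 5.90 in Gpr124-/-, and the gene that rose was Sost, a secreted WNT antagonist of osteocytes, from at most 0.249 TPM to between 2.34 and 4.68 (log2 fold change 4.51, edgeR adjusted p = 0.000548). Chondrocyte markers summed to 15.9 to 26.7, 12.7 to 18.8 and 14.2 to 19.1 TPM, most of it from Sox9 with means of 18.2, 10.1 and 11.04 TPM, and 0 of the 4 tested were called in Gpr124-/- by edgeR or DESeq2, with 2 at an unadjusted p under 0.05 in edgeR, while Comp rose in Gpr124ΔC/ΔC (1.47, edgeR adjusted p = 0.0203). For Unc13c, the 9 neuronal markers summed to 57.2 to 135 TPM in wild type, 80.0 to 148 in Gpr124ΔC/ΔC and 110 to 138 in Gpr124-/-, overlapping throughout, and Stmn2 alone was called, in Gpr124-/- (1.25, edgeR adjusted p = 0.00109). Of 6 tested markers of neural progenitors and glia, edgeR called 0 in each comparison, 1 had an unadjusted p under 0.05 in each, and DESeq2 called 1 between the mutants alone. For Cd300a, the leukocyte gene Ptprc was at no more than 0.0226 TPM in any genotype mean, and the 8 macrophage markers summed to 5.92 to 10.6 TPM in wild type, 6.94 to 14.2 in Gpr124ΔC/ΔC, 22.2 in KE4 and 3.28 to 6.51 in the M embryos. Among them Mrc1 alone was called, lower in Gpr124-/- than in Gpr124ΔC/ΔC (-1.75, edgeR adjusted p = 0.0446). Fibroblast markers summed to less in the mutants, with 101 to 149 TPM in wild type, 70.3 to 75.3 in Gpr124ΔC/ΔC and 58.2 to 71.7 in Gpr124-/-, most of it from Fbln1 with means of 85.7, 60.5 and 50.7 TPM. In Gpr124-/- against wild type 1 of 7, Pdgfra, was called (-2.55, edgeR adjusted p = 0.00835), and Fbln1 had -0.80 (edgeR adjusted p = 0.000268), short of the fold threshold. Of 8 pericyte and smooth muscle markers Abcc9 rose (2.66, edgeR adjusted p = 0.000327) and Rgs5 fell (-1.47, edgeR adjusted p = 0.0187) in Gpr124-/-.

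**Figure D5:**
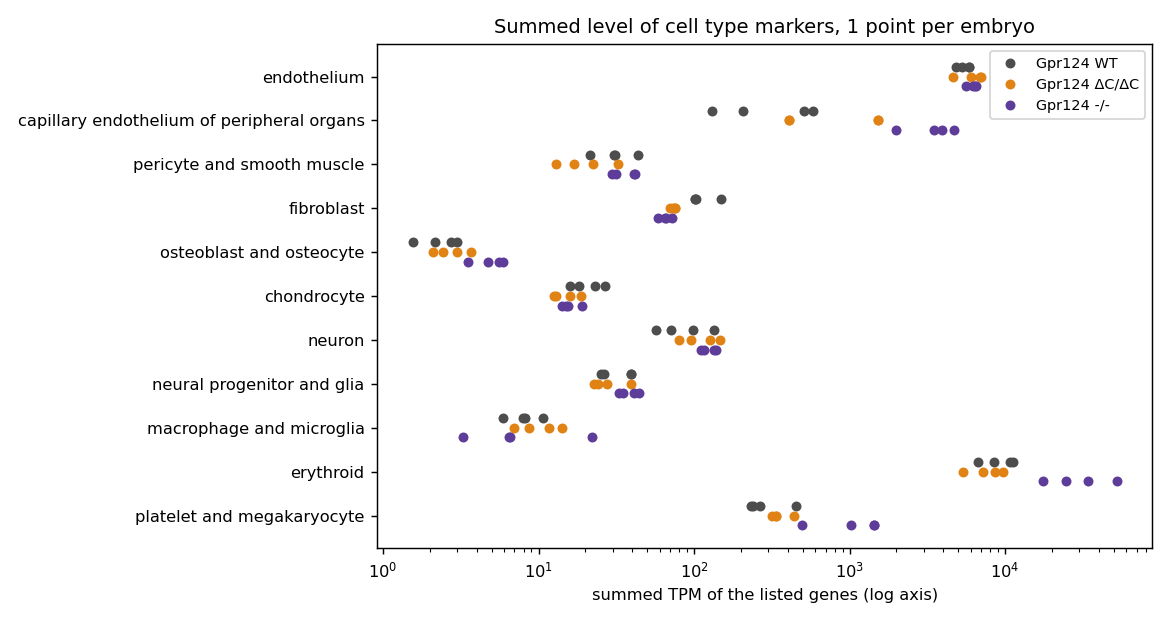
Summed TPM (x axis, log scale) of the marker genes of 11 cell types (y axis) in the 12 embryos, coloured by Gpr124 genotype, with 1 point per embryo. The 4 Gpr124-/- embryos lie above all others for the capillary genes of peripheral organs (1988 to 4672 TPM), the erythroid genes (17620 to 52530) and the platelet genes (497 to 1435), and the endothelial sums overlap between genotypes.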

How the data were processed

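The authors sorted endothelial cells, made libraries with SMART-Seq v4 and deposited 1 table of gene counts per library, raw and not normalized, and TPM values per gene. The deposited TPM were the counts divided by gene length and scaled per library: recomputed values above 0.1 TPM differed by at most 0.0495%. The processing notes name mm10 and bcl2fastq 2.17. The aligner and counting program, and whether counting used strand, are not given in the sources used here, so reads of genes that overlap on opposite strands cannot be told apart. Symbols came from GENCODE vM21 for 49056 identifiers, and 259 had none.

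Counts were fitted in R 4.3.3 with edgeR 4.0.16 (low counts removed by filterByExpr, default count minimum 10, TMM factors from 0.946 to 1.04, glmQLFit and glmQLFTest) on all 12 libraries with genotype as the term, in 3 comparisons, with Benjamini-Hochberg adjustment over 16637 genes. Genes past an adjusted p of 0.05 and a log2 fold change of 1 in either direction are called. The model was tested on simulated data: 198 of 200 changed genes were called for Gpr124-/- and 195 for Gpr124ΔC/ΔC against wild type, with 7 unchanged genes called in each among 16601. With a term for the label letter it called 150 and 191, with 13 and 7 unchanged genes. The simulated counts held no letter effect, so how such an effect would alter either model was not measured. Libraries of 1 genotype differed by more than counting noise, at least 7.73 times per degree of freedom in chi-square. That each library counts as 1 embryo rests on its label and the study's 4 biological replicates, not on this excess. Replicate numbers were given in accession order and pair nothing. Depth was 13877572 to 22551163 reads, and precision is limited by having 4 embryos per genotype.

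The members, the gene lists and the rule for named genes were chosen with earlier results of these data known. Named were the members, the called genes of each list (at most 4 per list and comparison), direct relatives of the members, called and nearest neighbours, the 3 most similar genes and called markers (at most 4 per list). Cd44 and Adamts9, beyond that limit, and marker names beside small counts or as examples of low levels, were chosen after their values were seen. Similarity was Pearson's r over log2 CPM values (prior count 2). Alternatives were other normalization factors, filters, a term for the label letter, DESeq2 1.42.0, limma 3.58.1 with a pseudocount of 1 or 0.1 on log2 TPM where the mean TPM was 1 or more, fits of 2 genotypes, no fold threshold, genes within 1 Mb, and each library left out. Tables and plots were made in Python 3.11.15 with pandas 2.3.3 and matplotlib 3.10.9, and promoter sequences are those of RefSeq on GRCm38.p6.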

Additional observations from a re-analysis of the deposited data

Results flagged for a closer look

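In 31 named genes, the embryos of each genotype were examined for 1 value far from the 3 others, in 93 groups of 4, of which chance flags about 1 in 20, and 7 stood apart. Among the members this was Unc13c in Gpr124-/- embryo KE4, at 5.47 TPM against 1.64 to 2.167 in the others. Hapln3 stood apart in KE4 as well, at 20.04 TPM against 8.49 to 9.32. The rest were Madcam1 in JE4 (46.4 TPM against 36.0 to 37.8), Adamts5 in JE3 (1.10 against 0.580 to 0.663), Stab2 in JE1 (2.77 against 1.01 to 1.25), Unc13b in LE2 (4.69 against 3.79 to 3.92) and Spp1 in KE8 (6.85 against 0.278 to 0.553).

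Between the mutants, edgeR called 9 of these genes, which were named in part for that call, so that nothing is read from their number beside the 4.6% of all tested genes called there. The difference in log2 fold change was 2.32 for Cd300a, 2.11 for Mpp3, 1.55 for Itgb3, 1.42 for Unc13d, 1.25 for Cfap97d1, 1.22 for Mpp2, 1.03 for Madcam1, -1.28 for Hapln3 and -1.85 for Stab2. When the label letter was added to the model, that of Mpp3 alone was still called.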

How the results depend on the processing

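No paired analysis was possible because no label gives replicate numbers that tie embryos of different genotypes, and the letter of the embryo label, shared by some embryos of different genotypes, was used as a block instead. Over 15 log2 fold changes of the members and 20 alternatives each, 290 of 300 values lay within the spread of the embryos and none of a called value changed sign. With the letter as a term, Cd300lg was 3.84 in Gpr124-/- against wild type and 1.98 against Gpr124ΔC/ΔC. In Gpr124-/- against wild type, Unc13c was then 2.65 and Hapln1 2.90, and Hapln1 was 0.51 between the mutants. Gpr124-/- then rests on KE4 against KE8. On simulated data this model called 150 of 200 changed genes in Gpr124-/- against wild type, against 198 without the letter. The simulated counts held no letter effect, so they do not show why values or calls moved with the letter. By limma on log2(TPM + 1), which shrinks low levels, Cd300lg was 4.43, Dmp1 2.79 and Unc13c 1.13 in Gpr124-/-, and Dmp1 2.73 and Unc13c 1.80 in Gpr124ΔC/ΔC, each against wild type. Leaving out single libraries moved no member value by more than that spread. Leaving out 1 embryo of 4 can hardly shift a mean that far, so these fits were nearly bound to stay within it. Most of the 300 values came from such fits, so the 290 do not measure robustness.

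Counts of called genes varied more. Of partner genes, 14 in Gpr124-/- against wild type became 5 with the letter, 7 and 8 by limma with a pseudocount of 1 and 0.1, and 9 to 17 without single libraries. The 1 in Gpr124ΔC/ΔC became 3 without the fold threshold. The 6 between the mutants became 1 with the letter, 1 by either limma, 11 without the fold threshold and 1 to 12 without single libraries. Of neighbours, 5 in Gpr124-/- against wild type became 1 with the letter, 2 and 3 by limma, 8 without the fold threshold, 11 within 1 Mb and 3 to 6 without single libraries, the lowest without ME1 or ME5. The 2 in Gpr124ΔC/ΔC became 1 without the filter on low counts, at a mean of 50 counts and with 2 genotypes in the fit, 0 by either limma (pseudocount 1 or 0.1), 4 within 1 Mb and 0 to 2 without single libraries, with 0 without JE1 or JE6. The 3 between the mutants became 1 at a mean of 50 counts and with the letter, 6 without the fold threshold, 7 within 1 Mb and 2 to 4 without single libraries. Beyond what the filters and thresholds imply, the cause was not tested. The values of Cd300lg in wild type, at 2 to 28 reads, and of Map3k9, at 2 to 23 reads, rest on few reads. Of 30 called values of listed and neighbouring genes, 6 kept their call under all alternatives: those of Fam20c in both mutants, Emcn and Rab3a in Gpr124-/-, and Mpp3 in both of its comparisons.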
